A study of Mus musculus with 6 samples.

Results

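The BCL2 family sets the threshold at which a cell enters mitochondrial apoptosis, and 10 of its genes were followed here through myocardial infarction (MI) of the mouse heart: the pro-survival genes *Bcl2*, *Bcl2l1*, *Mcl1* and *Bcl2a1b*, the effectors *Bax* and *Bak1*, the BH3-only genes *Bid*, *Bbc3* and *Bcl2l11*, and the mitophagy receptor *Bnip3*. They were chosen by name and are 10 of the 17441 genes listed in any library. RNA-seq was performed on cardiac tissue of 12-week-old male mice, 3 days after surgery, from below the level at which the left coronary artery is tied. The 3 groups held 2 libraries each: wild-type mice after sham surgery (WT Sham), wild-type mice after coronary ligation (WT MI), and mice labelled as *Card9* knockout after the same ligation (*Card9* KO MI). By its description in the methods the knockout line is on a C57BL/6 background, and wild-type littermates and C57BL/6 mice were the controls. All 3 groups are whole tissue, and a *Card9* KO sham group was not analysed here. A difference between *Card9* KO MI and WT Sham holds genotype and infarction together, which cannot be told apart. The labels do not say whether the 2 libraries of a group came from separate mice, so the p-values measure only the spread between these libraries.

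Pro-survival BCL2 proteins hold BAX and BAK in check. When BH3-only proteins, which are raised or activated by stress, occupy the pro-survival proteins or engage the effectors directly, BAX and BAK permeabilise the outer mitochondrial membrane, cytochrome c is released, and the apoptosome activates caspases. In the heart, cardiomyocytes depend on MCL1 and BCL-XL, the product of *Bcl2l1*, and BNIP3 is known as a hypoxia-inducible protein of the mitochondrial membrane that takes part in mitophagy and cell death. BCL2A1 proteins are typical of myeloid cells, in which they support survival. Many of these proteins are also regulated by cleavage, phosphorylation or rapid turnover, which RNA levels do not show.

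The mouse carries several near-identical *Bcl2a1* genes, and the fragments of one can be counted for another. The first 80 coding bases of 3 of these genes (mm9, GENCODE) are printed to show how alike the transcripts are, with the 6 positions that differ among them in capitals; *Bcl2a1b* lies at chr9:89094198-89094277 on the plus strand, *Bcl2a1a* at chr9:88851889-88851968 on the plus strand and *Bcl2a1d* at chr9:88626478-88626557 on the minus strand.
Bcl2a1b: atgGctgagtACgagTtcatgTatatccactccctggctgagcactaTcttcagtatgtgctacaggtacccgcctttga
Bcl2a1a: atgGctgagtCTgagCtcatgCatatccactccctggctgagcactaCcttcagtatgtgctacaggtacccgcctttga
Bcl2a1d: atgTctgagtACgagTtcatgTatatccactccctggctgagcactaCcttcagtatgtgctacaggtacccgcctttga
Over the whole coding sequence of 519 bases, *Bcl2a1b* differed from *Bcl2a1a* at 11 positions (97.88% identical) and from *Bcl2a1d* at 6 positions (98.84% identical). Of all 50-base windows of the *Bcl2a1b* transcript, 57.4% also occurred in *Bcl2a1a*, *Bcl2a1c* or *Bcl2a1d*, and of the 90-base windows 36%. In addition, 49.1% of the annotated exon bases of *Bcl2a1b* lie in exons of *Mthfs* on the same strand. The values of the single *Bcl2a1* genes are therefore uncertain, and their sum is given beside them.

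Promoter sequence is shown for the 2 members at the ends of the range of change, *Bcl2a1b* and *Bnip3*. The 250 bases before each RefSeq start were searched on both strands for GAGGAAGT, a core of the sites bound by the myeloid factor PU.1, and for ACGTG, the core of hypoxia response elements. The *Bcl2a1b* stretch is chr9:89093933-89094000 (mm9, plus strand, positions -178 to -111 from the RefSeq start, GAGGAAGT in capitals), and the *Bnip3* stretch is chr7:146101262-146101327 (mm9, minus strand, positions -138 to -73, capitals where ACGTG matches overlap on both strands).
Bcl2a1b: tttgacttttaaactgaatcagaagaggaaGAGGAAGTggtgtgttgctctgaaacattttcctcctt
Bnip3: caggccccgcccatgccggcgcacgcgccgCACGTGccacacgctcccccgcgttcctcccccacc
GAGGAAGT was found in 2.44% of all 32851 promoters, among them those of *Bcl2a1b* and *Bak1* as well as *Bcl2a1a*, *Bcl2a1c* and *Bcl2a1d*. ACGTG occurred in 16.57% of all promoters, among them *Bnip3*, *Bax* and 1 of the 3 *Bbc3* promoters. A consensus site of NF-κB was present in 7.25% of promoters, including 1 of 3 for *Bcl2l1* and 1 of 3 for *Bbc3*, and a p53 consensus in 0.06%, with no member among them. These matches are descriptions of sequence only.

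*Card9* was examined first as a check of the labels. Its level was 0.99 and 1.03 FPKM (fragments per kilobase of transcript, scaled to the sequenced fragments of the library) for WT Sham, 3.39 and 5.08 for WT MI, and 9.85 and 6.94 in those that carry the *Card9* KO MI label. *Card9* was thus not lower in the libraries labelled knockout, and which part of the gene was deleted is not given in the sources used here. Every direction between *Card9* KO MI and WT MI below rests on these labels. From the spacing of low FPKM values, the libraries were estimated to hold between 3010000 and 4290000 fragments, fewest in WT Sham and most in *Card9* KO MI. Replicates correlated with Pearson's r of 0.9797 to 0.9809 across genes, which are not independent replicates. *Myh6*, the main cardiac myosin heavy chain and the defining marker of the labelled tissue, was at 3454 to 7384 FPKM in all 6 libraries. The 10 most abundant genes held 16.14% and 16.43% of all FPKM after sham surgery but 8.99% to 10.6% post-MI, and over all 13120 tested genes the median log2 fold change was 0.19 for WT MI and 0.24 for *Card9* KO MI, both against WT Sham. A change below these medians is no rise relative to the average gene.

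Infarction was accompanied by higher RNA of both arms of the family. In WT MI against WT Sham, *Bcl2a1b*, *Bcl2l1* and *Mcl1* of the pro-survival genes, both effectors and the BH3-only gene *Bid* rose (adjusted p below 0.05, limma on log2(FPKM + 1), Benjamini-Hochberg over all tested genes), while *Bcl2*, *Bbc3*, *Bcl2l11* and *Bnip3* did not pass. That is 6 of 10 members higher and 0 lower, in a comparison that called 27.7% of all tested genes higher and 9.39% lower. Across the members the median log2 fold change was 0.66, beside 0.19 for all tested genes. Under 3 other scalings (upper-quartile, quantile, and without the 100 most abundant genes), which bring the median of all genes to between -0.07 and 0.06, the member median was 0.44 to 0.54 and 5 members were higher, with *Mcl1* lost. In the same order these scalings called 2603, 2288 and 2869 of the 13120 tested genes higher and 2159, 2416 and 1830 lower. The libraries of the groups did not overlap for 7 members, all higher in WT MI, where 70.4% of all tested genes did not overlap in one direction or the other. All 10 members passed the filter on low values. *Bid* did so only through the infarct libraries, since both WT Sham libraries lay below 1 FPKM (0.83 and 0.17), so its call is not independent of the filter.

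**Figure D1:**
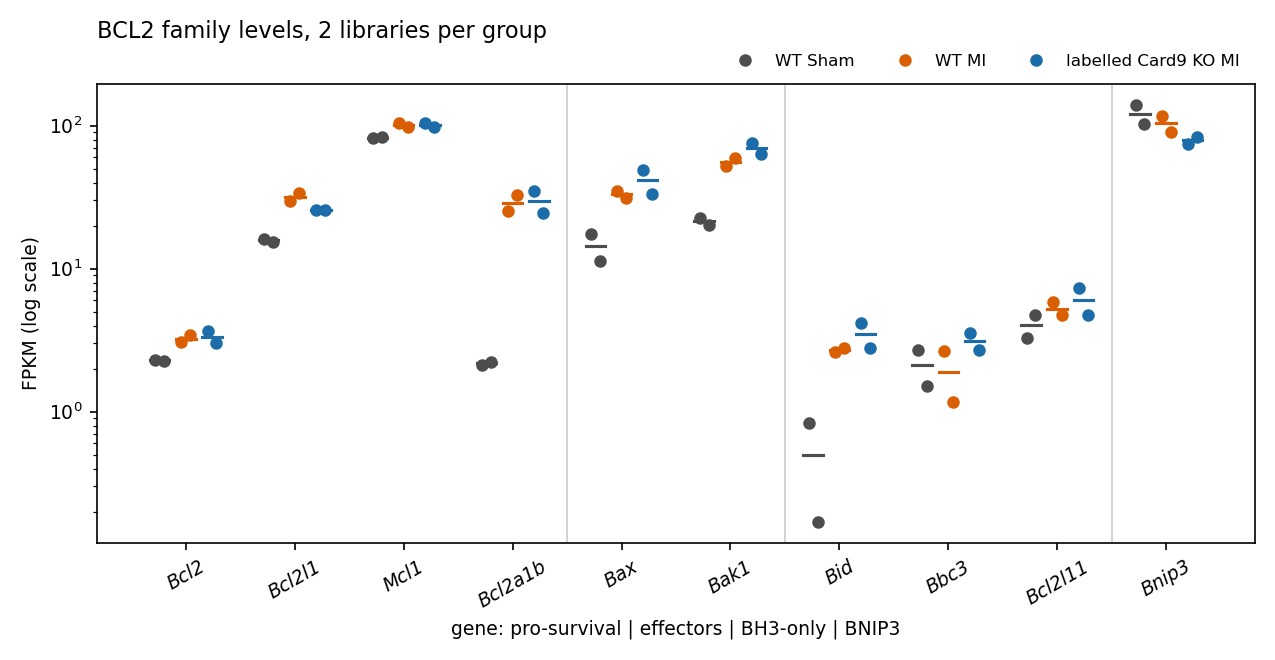
FPKM (log axis) of the 10 BCL2 family genes, grouped by role, with 1 point per library, 2 libraries per group, and a short bar at the group mean. *Mcl1* and *Bnip3* lie at 74.8 to 139.6 FPKM in every library, and *Bcl2a1b* moves from 2.13 and 2.23 FPKM in WT Sham to 24.4 to 35.1 FPKM post-MI.

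FPKM is a level per transcript length, so the members can be ranked within a group. In WT Sham the order of mean levels was *Bnip3*, *Mcl1*, *Bak1*, *Bcl2l1*, *Bax*, *Bcl2l11*, *Bcl2*, *Bcl2a1b*, *Bbc3* and *Bid*. The values of *Bcl2l1* and *Bax* overlapped there, as did those of *Bcl2a1b* and *Bbc3*. In WT MI, *Bcl2a1b* took the place after *Bcl2l1*, with *Bax*, *Bcl2l1* and *Bcl2a1b* overlapping in turn, and *Bnip3* overlapped *Mcl1* at the top. In *Card9* KO MI, *Mcl1* stood first with a mean of 101.6 FPKM, *Bnip3* followed at 79.3 FPKM and overlapped *Bak1* at 69.5 FPKM.

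Of the pro-survival genes, *Mcl1* (chr3:95462643-95467099, plus strand, mm9), whose short-lived product binds BAK and several BH3-only proteins, was the most abundant. It was measured at 81.7 and 82.6 FPKM for WT Sham, 104.9 and 98.2 FPKM for WT MI, and 105.1 and 98.0 FPKM for *Card9* KO MI. Both infarct groups lay above WT Sham and covered the same range as each other. The log2 fold change in WT MI against WT Sham was 0.30 (SE 0.09, limma adjusted p = 0.03308), which is 0.12 above the median of all genes, and the call was lost under each of 3 other scalings, at log2 fold changes of 0.09 to 0.15 and limma adjusted p of 0.2194 to 0.4807. It was also lost without any one of the 4 libraries compared (adjusted p of 0.08043 to 0.1759, limma) and without the variance trend (0.09792). In each library *Mcl1* gave the largest share of the summed FPKM of the 4 pro-survival genes, at 79.8% and 80.7% for WT Sham, 64.3% and 58.5% for WT MI, and 62.0% and 64.8% for *Card9* KO MI.

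*Bcl2l1* (chr2:152593052-152657464, minus strand), which encodes BCL-XL, rose in both infarct groups. Its FPKM was 16.2 and 15.3 for WT Sham, 29.65 and 33.7 for WT MI, and 25.7 and 25.8 for *Card9* KO MI. The 3 groups did not overlap, with *Card9* KO MI between the other groups. In WT MI against WT Sham the mean was 2.01 times as high and the log2 fold change 0.96 (SE 0.11, limma adjusted p = 0.0005834), and over all alternatives it stayed between 0.74 and 1.05 with the call kept.

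*Bcl2* (chr1:108434755-108610851, minus strand), the founding member of the family, was a low transcript of the tissue. Its libraries had 2.31 and 2.26 FPKM for WT Sham, 3.06 and 3.41 FPKM for WT MI, and 3.64 and 3.02 FPKM for *Card9* KO MI. Both infarct groups lay above WT Sham without overlap, but the log2 fold change of 0.37 in WT MI (95% interval -0.05 to 0.78, limma adjusted p = 0.15) did not pass. Under quantile normalization this value was 0.03.

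*Bcl2a1b* (chr9:89094047-89102665, plus strand) changed most of the members. Its level was 2.13 and 2.23 FPKM for WT Sham, equal to an estimated 5.51 and 5.48 fragments, against 25.5 and 32.5 FPKM in WT MI and 35.1 and 24.4 FPKM for *Card9* KO MI. The WT MI mean was 13.3 times the WT Sham mean, and the log2 fold change on the log2(FPKM + 1) scale was 3.23 (SE 0.19, limma adjusted p = 4.208e-05). With pseudocounts from 0.1 to 5 FPKM the fold change ranged from 3.66 to 2.23, with the call kept. *Bcl2a1b* contributed 2.08% and 2.18% of the pro-survival FPKM in WT Sham but 15.6% and 19.4% in WT MI. When *Bcl2a1a*, *Bcl2a1b*, *Bcl2a1c* and *Bcl2a1d* were summed, the libraries gave 2.13 and 2.23 FPKM for WT Sham, 30.2 and 36.2 FPKM for WT MI, and 37.8 and 32.0 FPKM for *Card9* KO MI.

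Marker genes of myeloid cells rose with *Bcl2a1b* after infarction in wild-type mice. All 12 macrophage markers and all 9 neutrophil markers that were listed rose in WT MI against WT Sham, although 11 of the macrophage markers did so under quantile normalization and upper-quartile scaling. The macrophage markers summed to 364 to 427 FPKM for WT Sham, 1471 to 1869 FPKM in WT MI and 2157 to 2975 FPKM in *Card9* KO MI. The neutrophil markers summed to 5.55 to 8.16, 104 to 237 and 53.5 to 66.1 FPKM in the same order, with *Csf3r* at 11.6 FPKM or more in each infarct library and *Ly6g* listed in none. Against the integrin *Itgam*, carried by both cell types, the *Bcl2a1b* level was 0.66 and 1.01 times as high for WT Sham, 0.76 and 1.06 times for WT MI, and 0.93 and 1.04 times for *Card9* KO MI, so that this ratio overlapped among the 3 groups. Against the macrophage receptor *Csf1r* the ratio was 0.11 and 0.14 for WT Sham, 0.699 and 0.906 for WT MI, and 0.524 and 0.445 for *Card9* KO MI. The 3 groups did not overlap there, with *Card9* KO MI between the other groups. Against the neutrophil receptor *Csf3r* it was 1.38 and 1.70 for WT Sham and 0.885 to 2.51 post-MI. All WT Sham ratios rest on an estimated 5.51 and 5.48 fragments of *Bcl2a1b* and are uncertain. Between *Card9* KO MI and WT MI, 11 of the 12 macrophage markers had log2 fold changes above 0, and *Itgam* did not (-0.10). The neutrophil markers went the other way, with 0 of 9 above 0 and a list median of -0.64. The median of all tested genes was 0.04. None of the 12 macrophage or 9 neutrophil markers passed. In whole tissue, more cells of a type and more RNA per cell cannot be told apart, and the part of cell composition in these changes was not tested.

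The effectors, whose products form the pores of the outer mitochondrial membrane, both rose. *Bak1* (chr17:27156755-27165954, minus strand) had 22.6 and 20.3 FPKM for WT Sham, 52.2 and 59.3 FPKM for WT MI, and 75.5 and 63.6 FPKM for *Card9* KO MI. The 3 groups were ordered without overlap. The log2 fold change in WT MI against WT Sham was 1.34 (SE 0.12, limma adjusted p = 0.000229), with 1.12 to 1.43 over the alternatives. Of its annotated exon bases, 14.8% are shared with *Ggnbp1* on the opposite strand, and whether the counting used strand is not given in the sources used here.

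*Bax* (chr7:52717065-52722268, minus strand) showed a similar change with wider spread. Its FPKM was 17.5 and 11.3 for WT Sham, 34.99 and 31.2 for WT MI, and 49.3 and 33.4 for *Card9* KO MI. WT Sham lay below both infarct groups, which overlapped each other. The log2 fold change in WT MI was 1.17 (SE 0.23, limma adjusted p = 0.00633), and without WT MI replicate 1 it was 1.09 and just missed the call (limma adjusted p = 0.0509). *Bak1* exceeded *Bax* in each library, by 1.29 to 1.91 times, and this ratio overlapped among the groups.

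Among the BH3-only genes, *Bid* (chr6:120841948-120866871, minus strand), whose product is cleaved by caspase-8 and so links death receptors to mitochondria, passed the test from a very low starting level. It was measured at 0.83 and 0.17 FPKM for WT Sham, which are worth only an estimated 6.34 and 1.24 fragments, at 2.60 and 2.81 FPKM for WT MI, and at 4.15 and 2.80 FPKM for *Card9* KO MI. All 4 infarct libraries lay above both WT Sham libraries. The log2 fold change of 1.34 in WT MI against WT Sham (SE 0.27, limma adjusted p = 0.007319) depended on the pseudocount and ranged from 0.49 to 2.48 over the alternatives, always with the call kept where *Bid* was tested. A share of 17.7% of its exon bases is also annotated to *Bcl2l13* on the opposite strand.

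*Bbc3* (chr7:16894965-16903554, plus strand), which encodes the p53 target PUMA, was at 2.72 and 1.5 FPKM for WT Sham, 2.65 and 1.16 FPKM for WT MI, and 3.53 and 2.70 FPKM for *Card9* KO MI. WT Sham and WT MI covered nearly the same range, at a log2 fold change of -0.12 (95% interval -0.84 to 0.60, limma adjusted p = 0.7934), a sign that turned when WT Sham replicate 1 (0.17) or WT MI replicate 2 (0.26) was left out. At 8.19 to 27.5 estimated fragments per library, its counting error was large.

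*Bcl2l11* (chr2:127951774-127988283, plus strand), which encodes BIM, a BH3-only protein that binds all pro-survival members, had 3.28 and 4.75 FPKM for WT Sham, 5.81 and 4.72 FPKM for WT MI, and 7.29 and 4.74 FPKM for *Card9* KO MI. The 3 groups overlapped. Its log2 fold change in WT MI was 0.33 (95% interval -0.22 to 0.88, limma adjusted p = 0.3104).

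*Bnip3* (chr7:146082519-146101202, minus strand) was the most abundant member in WT Sham. Its level was 139.6 and 103.2 FPKM for WT Sham, 117.5 and 90.6 FPKM for WT MI, and 74.8 and 83.8 FPKM for *Card9* KO MI. WT Sham and WT MI overlapped, whereas both *Card9* KO MI libraries lay below all 4 others. The log2 fold change in WT MI against WT Sham was -0.22 (95% interval -0.62 to 0.18, limma adjusted p = 0.361). *Bnip3l*, its close relative NIX with the same role in mitophagy, had 18.7 and 17.5, 20.9 and 26.6, and 25.7 and 24.7 FPKM in the same order. The ratio of *Bnip3l* to *Bnip3* within a library was 0.13 and 0.17 for WT Sham, 0.18 and 0.29 for WT MI, and 0.34 and 0.29 for *Card9* KO MI, with WT Sham below all infarct libraries.

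The 8 cardiomyocyte markers summed to 44440 and 46270 FPKM for WT Sham, 28030 and 28700 FPKM for WT MI, and 23260 and 26980 FPKM for *Card9* KO MI, and 6 of the 8 fell in WT MI against WT Sham, or 5 to 8 under the other scalings, with 1 higher under quantile normalization. As a percentage of the cardiac troponin gene *Tnnt2*, *Bnip3* stood at 2.08% and 1.43% for WT Sham, 1.86% and 1.56% for WT MI, and 1.65% and 1.76% for *Card9* KO MI, values that overlapped among all 3 groups. As a percentage of *Myh6* the order was another, at 2.16% and 1.40% for WT Sham, 3.40% and 2.51% for WT MI, and 2.16% and 2.13% for *Card9* KO MI, with WT MI above the other groups without overlap. *Myh6* had fallen in WT MI (log2 fold change -0.97, limma adjusted p = 0.0006506), while *Tnnt2* at -0.20 had not passed (limma adjusted p = 0.171), so the comparison of *Bnip3* with cardiomyocyte RNA depends on the marker. The part of cardiomyocyte content in the *Bnip3* levels was not tested.

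**Figure D2:**
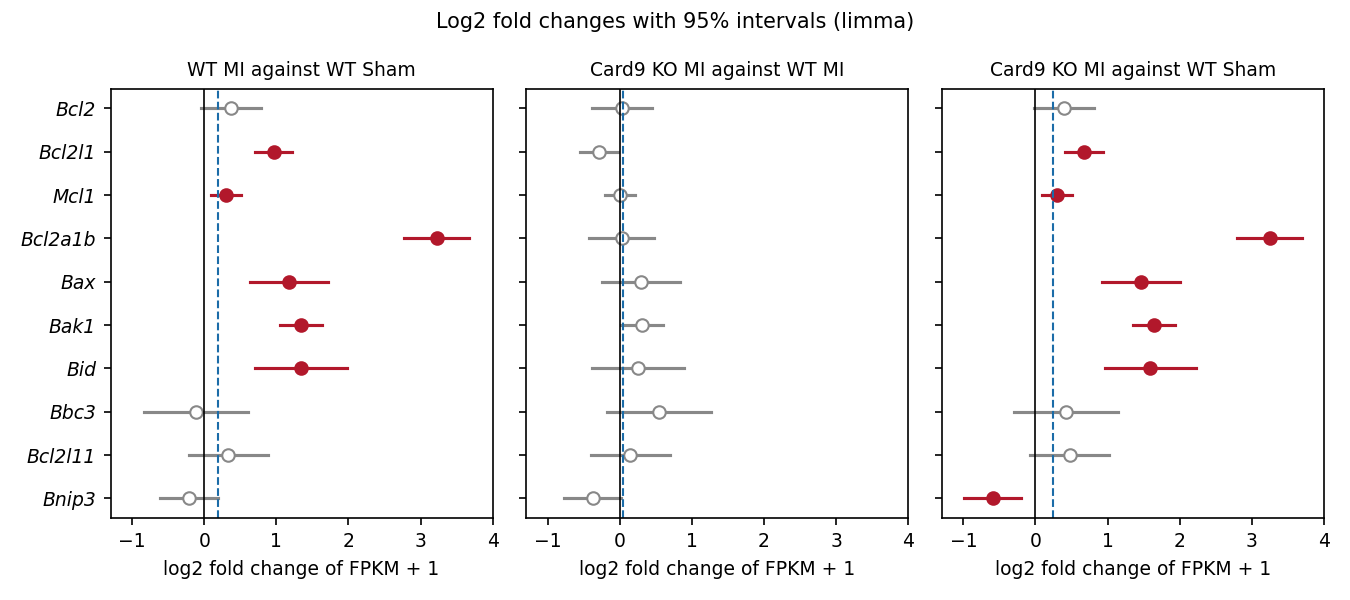
Log2 fold changes of FPKM + 1 (points) with 95% intervals from limma (lines) for the 10 members in the 3 comparisons; filled red points passed an adjusted p of 0.05, the solid line marks 0 and the dashed line the median of all tested genes. The left panel has 6 filled points, the middle panel 0 and the right panel 7.

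The comparison of the libraries labelled *Card9* KO MI with WT MI asks whether the family differs in the infarct with the genotype. No member passed the test (0 of 10, limma), in a comparison that called 0.816% of all genes higher and 0.587% lower. At an unadjusted p below 0.05 there were 2 of 10 members, beside 2629 of the 13120 tested genes. *Bak1* and *Bbc3* were higher without overlap and *Bcl2l1* and *Bnip3* lower without overlap, that is 4 of 10 members, where 52.7% of all genes did not overlap. *Bak1* had a log2 fold change of 0.31 (95% interval 0.02 to 0.60, limma adjusted p = 0.2183) and *Bcl2l1* one of -0.29 (95% interval -0.55 to -0.03, limma adjusted p = 0.2095). Both kept their sign under every alternative, but neither passed in any of them.

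The intervals of the other members set how large a difference could have been missed. *Mcl1* was narrowest, at a log2 fold change of 0.00 (95% interval -0.21 to 0.21). For *Bcl2a1b* the value was 0.02 (95% interval -0.43 to 0.47), and for *Bcl2* 0.03 (95% interval -0.39 to 0.45). *Bnip3* stood at -0.38 (95% interval -0.78 to 0.02, limma adjusted p = 0.2741). *Bbc3* was widest, at 0.54 (95% interval -0.18 to 1.27, limma adjusted p = 0.3796). For *Bax*, *Bid* and *Bcl2l11* the values were 0.29, 0.26 and 0.14, all with intervals that included 0.

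Compared with WT Sham, the libraries labelled *Card9* KO MI gave 6 of 10 members higher and 1 lower, where 34.8% of all genes were called higher and 14.3% lower. The comparison shares its WT Sham libraries with that of WT MI, so the fold changes are given side by side. *Bcl2a1b* had a log2 fold change of 3.25 here and 3.23 in WT MI, *Bak1* 1.65 and 1.34, *Bid* 1.6 and 1.34, *Bax* 1.46 and 1.17, *Bcl2l1* 0.68 and 0.96, and *Mcl1* 0.30 in both. The *Mcl1* call was again lost under the 3 other scalings, at 0.05 to 0.16, without the variance trend (limma adjusted p = 0.08055), and without WT Sham replicate 1 (0.09197), WT Sham replicate 2 (0.08324) or *Card9* KO MI replicate 1 (0.1079). *Bnip3* was the member that fell, by 0.59 on the log2 scale (SE 0.17, limma adjusted p = 0.02281), a call that was lost without WT Sham replicate 1 (fell by 0.38, adjusted p = 0.1303), without *Card9* KO MI replicate 1 (fell by 0.51, adjusted p = 0.1153), with no filter on low values (adjusted p = 0.05399) and without the variance trend (adjusted p = 0.05229). *Bcl2*, *Bbc3* and *Bcl2l11* had 0.39, 0.42 and 0.48 and did not pass, and under quantile normalization *Bcl2* turned to -0.06 and *Bbc3* to -0.03. Libraries did not overlap for 8 members, where the share of all genes was 76.1%.

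Ratios within a library set the opposing arms of the family against each other. They do not depend on scaling a library by 1 factor, although quantile normalization can change them. The summed FPKM of the 4 pro-survival genes was 102.4 in each WT Sham library, 163.1 and 167.8 for WT MI, and 169.6 and 151.1 for *Card9* KO MI. The sum of *Bax* and *Bak1* was 40.1 and 31.6 for WT Sham, 87.2 and 90.5 for WT MI, and 124.8 and 97.0 for *Card9* KO MI. Both sums were thus higher in all infarct libraries than in WT Sham, the effectors by the larger factor. The ratio of the pro-survival to the effector sum was 2.55 and 3.24 for WT Sham, 1.87 and 1.86 for WT MI, and 1.36 and 1.56 for *Card9* KO MI, in groups that did not overlap.

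Single pairs of genes whose products interact showed the same order where *Bak1* was the partner. These pairs share *Bak1*, which is also the larger part of the effector sum, so their order is not independent of that ratio. *Mcl1* over *Bak1* was 3.62 and 4.08 for WT Sham, 2.01 and 1.66 for WT MI, and 1.39 and 1.54 for *Card9* KO MI. *Bcl2l1* over *Bak1* was 0.72 and 0.75 for WT Sham, 0.57 in both WT MI libraries, and 0.34 and 0.41 for *Card9* KO MI. *Bcl2* over *Bax* was 0.13 and 0.20 for WT Sham, 0.09 and 0.11 for WT MI, and 0.07 and 0.09 for *Card9* KO MI, where the infarct groups overlapped. *Bcl2l1* over *Bax* was 0.93 and 1.35 for WT Sham, 0.85 and 1.08 for WT MI, and 0.52 and 0.77 for *Card9* KO MI. There WT Sham and WT MI overlapped. The ratios are descriptions, since 2 libraries against 2 cannot reach a two-sided p below 0.333 in an exact permutation test. RNA ratios in whole tissue mix cell types, and the macrophage and cardiomyocyte marker sums given above differed in the same order of groups, a part that was not tested.

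**Figure D3:**
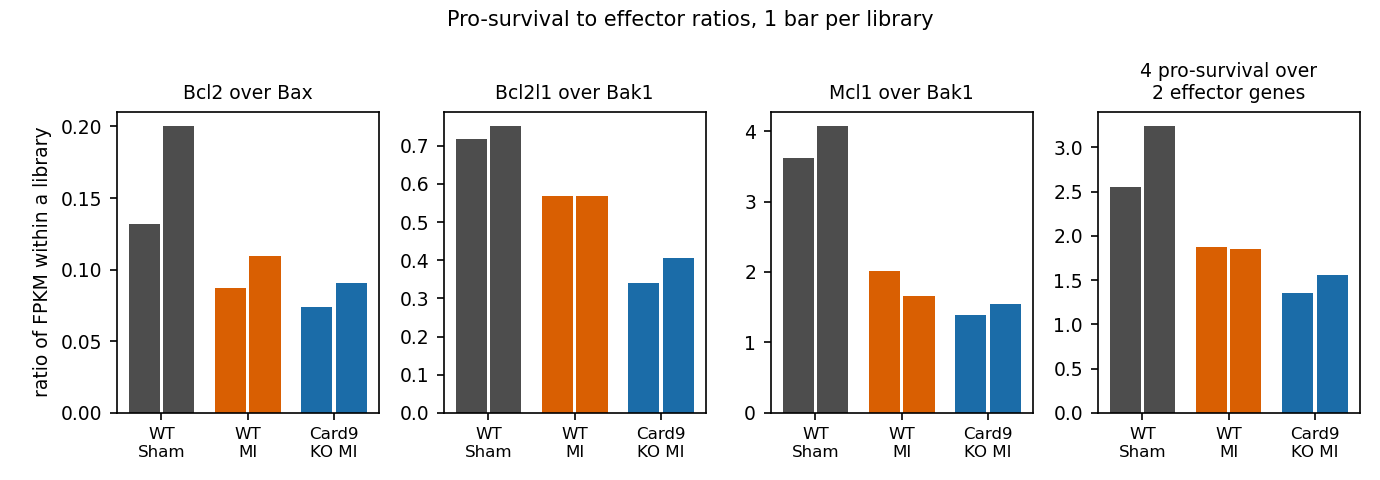
Ratios of FPKM within a library for 3 gene pairs and for the sum of the 4 pro-survival genes over the sum of *Bax* and *Bak1*, with 1 bar per library and all axes starting at 0. The rightmost panel falls from 2.55 and 3.24 in WT Sham to 1.36 and 1.56 for *Card9* KO MI.

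Of 18 other BCL2 family genes in a list drawn up beside the members, 17 were listed in some library (*Bcl2l10* in none) and 13 could be tested. In WT MI against WT Sham, 4 of the 13 were higher and 0 lower, at a list median of 0.32. Of all tested genes, 27.7% were called higher and 9.39% lower in this comparison. The same shares belong beside the WT MI counts of the lists that follow. Counts under the 3 other scalings are to be read beside the numbers of all genes called there, given with the members above. Under the 3 other scalings the list median was 0.07 to 0.18, with 4 higher in each and 1 lower under quantile normalization. *Bok*, an effector-like relative of BAX and BAK, had 1.11 and 1.86 FPKM for WT Sham, 7.66 and 5.01 FPKM for WT MI, and 9.81 and 6.30 FPKM for *Card9* KO MI (log2 fold change 1.55 in WT MI, SE 0.27, limma adjusted p = 0.00381). *Pmaip1*, the BH3-only gene that encodes NOXA, a partner of MCL1, rose from 0.24 and 0.25 to 2.13 and 1.14 FPKM (log2 fold change 1.06, limma adjusted p = 0.01725), a call that was lost without either WT Sham library or WT MI replicate 1 (limma adjusted p up to 0.1085).

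The other called genes of that list were *Bcl2a1a* and *Bcl2a1d*, whose calls were lost without WT MI replicate 1 (limma adjusted p up to 0.05839 and 0.05589), that of *Bcl2a1d* also with a pseudocount of 5 FPKM. *Bcl2a1d* was listed at 0 for WT Sham, at 2.81 and 2.63 FPKM for WT MI, and at 2.05 and 7.0 FPKM for *Card9* KO MI. Set against the level of 3 fragments per library, the WT MI mean of *Bcl2a1d* was at least 2.28-fold higher than that of WT Sham. *Bcl2a1a* was at 0 for WT Sham, at 1.88 and 1.09 FPKM in WT MI, an estimated 6.15 and 3.5 fragments, and at 0 in both *Card9* KO MI libraries, where 3 fragments would give 0.857 and 0.895 FPKM. The WT MI mean of *Bcl2a1a* was 1.25 times the WT Sham level of 3 fragments (1.162 and 1.221 FPKM). WT MI replicate 2 lay below that level, so no least rise can be given. The lower level of *Bcl2a1a* in *Card9* KO MI than in WT MI did not pass over all genes (limma adjusted p = 0.06453). The WT MI mean was 1.7 times the *Card9* KO MI level of 3 fragments, and the shared sequence shown above makes the assignment of *Bcl2a1a* uncertain. *Bcl2a1c* was at 0 except in *Card9* KO MI, at 0.70 and 0.60 FPKM. The filter on low values was passed by *Bcl2a1a* through WT MI alone, and by *Bcl2a1d* and *Pmaip1* through infarct libraries only. Their calls against WT Sham are therefore not independent of the filter.

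None of the 13 genes passed between *Card9* KO MI and WT MI, where 0.816% of all tested genes were called higher and 0.587% lower. The comparison of *Card9* KO MI with WT Sham called 34.8% of all tested genes higher and 14.3% lower. Against WT Sham, 5 were higher and 1 lower in *Card9* KO MI: *Bok* (log2 fold change 1.85), *Bcl2a1d* (at least 3.8-fold), *Pmaip1* (log2 fold change 1.03), *Bnip3l* (0.45) and *Bnip2* (0.42) were higher, and *Bcl2l13*, a mitophagy receptor of the outer mitochondrial membrane, was lower (-0.60, limma adjusted p = 0.008546). The calls of *Bnip3l* and *Bnip2* were lost under all 3 other scalings and without any one of the 4 libraries compared (limma adjusted p up to 0.2435 and 0.3485). That of *Pmaip1* was lost without either WT Sham library or *Card9* KO MI replicate 1 (up to 0.08984, limma), and that of *Bcl2l13* without WT Sham replicate 2 or *Card9* KO MI replicate 1 (up to 0.05207, limma). *Bcl2l13* ran from 16.5 and 20.3 FPKM in WT Sham through 16.5 and 14.9 FPKM in WT MI to 11.5 and 12.1 FPKM. The pro-survival gene *Bcl2l2*, which encodes BCL-W, stayed within 12.9 to 15.9 FPKM in all 6 libraries, and the BH3-only gene *Bad* within 8.56 to 12.7 FPKM. *Bik* and *Bmf*, also BH3-only, ranged over 3.21 to 6.04 and 0.87 to 1.93 FPKM, and *Bnip1* and *Bcl2l12* over 15.4 to 22.2 and 6.06 to 14.5 FPKM, with no call in any comparison. *Hrk*, *Bcl2l14* and *Bcl2l15* were too low to be tested.

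Downstream of BAX and BAK, 7 of 15 genes of the caspase and apoptosome list were higher and 3 lower in WT MI against WT Sham, and 5 to 7 higher and 5 or 6 lower under the 3 other scalings. *Casp8*, the initiator that cleaves BID, rose by 1.48 and *Apaf1*, the scaffold of the apoptosome, by 1.04 on the log2 scale. The genes that fell were *Aifm1* (log2 fold change -0.47), *Vdac1* (-0.40) and *Endog* (-0.39). Each of these 3 calls was lost without either WT Sham library and in other fits with 1 library fewer, at limma adjusted p up to 0.2388, 0.1181 and 0.2703, and each kept its sign.

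The death receptor list had 4 of 9 tested genes higher and 0 lower, as under each other scaling, led by *Ripk3*, *Mlkl* and *Ripk1*, the kinase and pore components of necroptosis. *Ripk3* was at 1.35 and 0.70 FPKM for WT Sham, 9.65 and 6.44 FPKM for WT MI, and 11.1 and 9.57 FPKM for *Card9* KO MI (log2 fold change 2.16 in WT MI, limma adjusted p = 0.0004434), and the fold changes of *Mlkl* and *Ripk1* were 1.36 and 1.31. Of the inhibitors of apoptosis, 4 of 8 were higher and 0 lower, or 2 higher under quantile normalization. *Birc5*, which encodes survivin and is a gene of dividing cells, changed by 2.69, and *Naip2* and *Naip5*, which sense bacterial proteins in inflammasomes, by 1.01 and 0.77. The *Naip5* call was lost under quantile normalization and without WT Sham replicate 1 or either WT MI library (limma adjusted p up to 0.1323).

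In the p53 list, 6 of 12 were higher and 2 lower, but 2 were higher and 2 or 3 lower under each of the 3 other scalings. *Trp53* itself had 18.5 and 19.2 FPKM for WT Sham, 41.4 and 40.0 FPKM for WT MI, and 41.9 and 37.5 FPKM for *Card9* KO MI (log2 fold change 1.07 in WT MI, limma adjusted p = 0.0002771). Its targets *Phlda3* and *Eda2r* rose by 1.28 and 0.72, whereas *Ccng1* (-0.73) and *Sesn1* (-0.57) were lower. *Eda2r* did not pass under any other scaling or without any one library except WT Sham replicate 1 (limma adjusted p up to 0.2372), and *Sesn1* did not pass without either WT Sham library or WT MI replicate 1 (up to 0.1085, limma). In the HIF target list 6 of 12 were higher and 2 lower, or 5 and 2 under each other scaling: *Slc2a1*, *Ero1a* and *Ndrg1* rose by 1.87, 0.98 and 0.77, and *Vegfa* (-0.69) and *Pdk1* (-0.41) were lower, the *Pdk1* call being lost without any one of the 4 libraries compared (limma adjusted p up to 0.2337).

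The mitophagy list, the list nearest to *Bnip3* in function, leaned the other way, with 1 of 11 higher and 4 lower in WT MI and a list median of -0.22, and with 0 or 1 higher and 5 to 7 lower under the other scalings. It shares *Bcl2l13* with the list of other BCL2 family genes. *Pink1*, the kinase that marks damaged mitochondria, had 257 and 278 FPKM for WT Sham, 132.0 and 132.4 FPKM for WT MI, and 116 and 120.3 FPKM for *Card9* KO MI (log2 fold change -1.01 in WT MI, limma adjusted p = 0.0001609). *Map1lc3b* was lower by a log2 fold change of -0.33, and *Gabarap*, another autophagosome protein of that family, was higher at 0.42. The *Map1lc3b* call was lost without any one of the 4 libraries compared (limma adjusted p up to 0.1949), and the *Gabarap* call under upper-quartile scaling and without WT Sham replicate 1 or WT MI replicate 2 (up to 0.1142, limma). *Optn*, an adaptor between ubiquitin and autophagosomes, was the one gene of the 6 pathway lists that passed between *Card9* KO MI and WT MI. It was measured at 62.9 and 59.6 FPKM for WT Sham, 36.4 and 39.0 FPKM for WT MI, and 20.1 and 22.2 FPKM for *Card9* KO MI. The groups did not overlap, with log2 fold changes of -0.69 in WT MI against WT Sham (limma adjusted p = 0.001943) and -0.81 in *Card9* KO MI against WT MI (SE 0.10, limma adjusted p = 0.02131). The call between the infarct groups was kept under the 3 other scalings but lost without any one of the 4 infarct libraries, without the filter on low values and without the variance trend (limma adjusted p up to 0.1556), with log2 fold changes of -0.88 to -0.71 throughout.

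**Figure D4:**
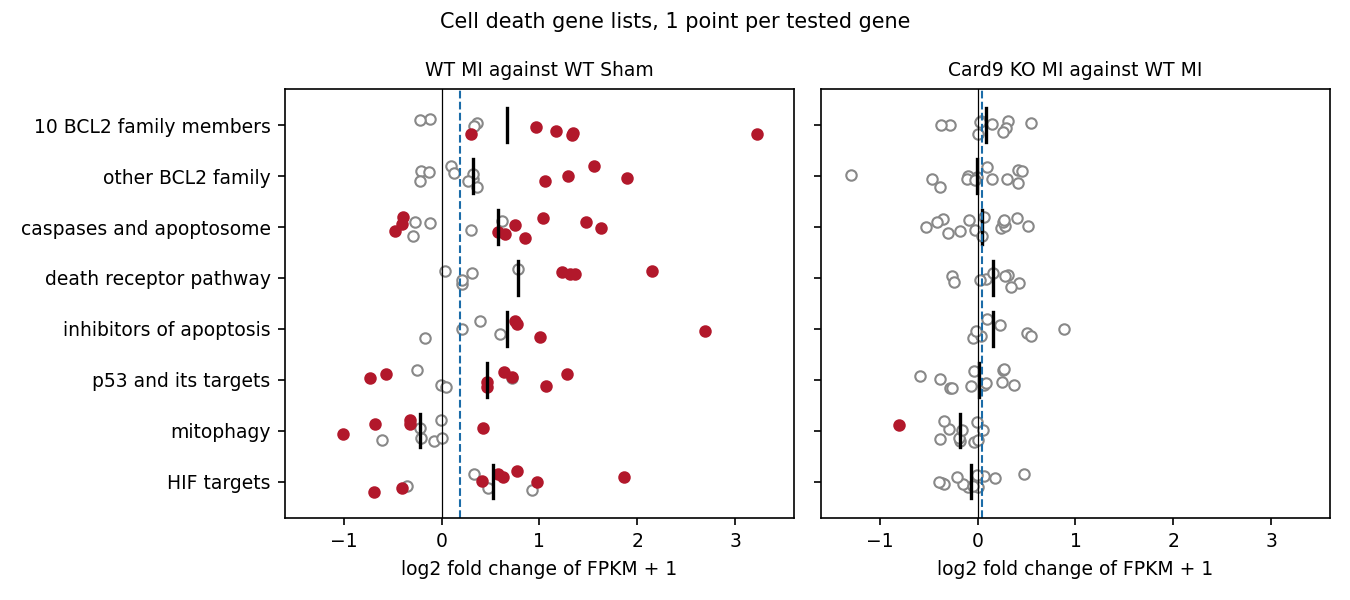
Log2 fold changes of FPKM + 1 for the tested genes of the members and of 7 related lists in WT MI against WT Sham (left) and *Card9* KO MI against WT MI (right), with 1 point per gene; filled red points passed an adjusted p of 0.05 (limma), black bars mark list medians and the dashed line the median of all tested genes. Filled points lie to the right of 0 for most lists on the left, and the only filled point on the right is *Optn* at -0.81.

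Markers of other cell types were read in the same libraries. The fibroblast markers summed to 444 to 464 FPKM for WT Sham, 1104 to 1514 FPKM in WT MI and 2396 to 2472 FPKM in *Card9* KO MI, but the markers did not move together. Between the infarct groups *Col1a1*, *Col1a2* and *Postn* were higher for *Card9* KO MI, by 1.06, 1.09 and 1.57 on the log2 scale (limma adjusted p of 0.03368, 0.0274 and 0.01613). These calls were lost without WT MI replicate 1 or either *Card9* KO MI library and in other fits (limma adjusted p up to 0.1556, 0.1335 and 0.1537). *Pdgfra* was at 7.25 and 8.15 FPKM for WT Sham, 15.2 and 15.9 FPKM for WT MI, and 10.6 and 10.4 FPKM for *Card9* KO MI, below WT MI without overlap (log2 fold change -0.52, limma adjusted p = 0.09387), and *Dcn* had a log2 fold change of -0.16 (limma adjusted p = 0.5374). Endothelial markers summed to 273 and 258 FPKM for WT Sham, 275 and 270 FPKM for WT MI, and 325 and 328 FPKM for *Card9* KO MI. The *Card9* KO MI sums lay above all others, but no endothelial marker passed between the infarct groups. In WT MI against WT Sham, 2 of the 6 endothelial markers were higher and 1 lower. T cell markers stayed within 4.17 to 6.45 FPKM with *Cd3e* listed at 0 in 1 WT Sham library, and B cell markers within 1.31 to 5.27 FPKM with *Cd79a* at 0.50 to 1.66 FPKM.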

How the data were processed

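RNA from cardiac tissue below the ligature was extracted with TRIzol, enriched for mRNA with oligo(dT) beads, prepared with a TruSeq kit and sequenced on an Illumina HiSeq. Per the study's methods and the submitters' processing notes, the authors filtered the reads, mapped them to mm9 (BWA, Bowtie2) and deposited, for each library, an FPKM value per gene number. Gene annotation and strand setting are not given in the sources used here. FPKM divides by gene length and by the library's fragments, so a shift in a few abundant genes moves all others. No count test was run. Depth was estimated from the spacing of low FPKM values, of which 78.1% to 82.2% came within 0.2 of a whole fragment, and the estimate covers counting error only.

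Genes not listed in a library were set to 0. limma 3.58.1 in R 4.3.3 (lmFit, contrasts.fit, eBayes with trend) was fitted to log2(FPKM + 1) of the 13120 genes with at least 1 FPKM in at least 2 libraries, all 3 groups in one fit, and p-values were adjusted by Benjamini-Hochberg over all of them. The filter counted libraries of any group, so a gene low in WT Sham could pass through the infarct libraries alone. The scale understates changes of low genes. On simulated data (WT MI against WT Sham, 12754 genes), 94 of 100 genes changed by a log2 value of 1 and 99 of 100 changed by 2 were recovered, with 6 unchanged genes called. The simulation gave genes of like level the same spread and changed only these genes, in WT MI alone. Recovery in the data may therefore be lower. The study's own screen (NOIseq) was not used. Positions are from the GENCODE annotation of mm9 and promoters from RefSeq (GRCm38.p6, printed where they matched mm9 exactly). Symbols were matched for 17390 of 17441 gene numbers, and 51 had none.

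The members, gene lists and tests were chosen with earlier results of these data known. Named were *Card9*, all members, all genes of the other BCL2 family list, and from the pathway lists the genes called in *Card9* KO MI against WT MI and, in each direction, the 3 with the largest change among those called in WT MI against WT Sham. 1 gene that this rule names is not reported here. *Itgam*, *Csf1r*, *Csf3r*, *Myh6* and *Tnnt2* as denominators, the fibroblast genes, the motifs, the ratios and the summed *Bcl2a1* genes were chosen after seeing the data. Figures were drawn with matplotlib 3.10.9.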

Additional observations from a re-analysis of the deposited data

How the results depend on the processing

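Recovery of changes below a log2 value of 1 was not simulated, and values under about 10 estimated fragments are uncertain, which among the members holds for *Bid* and *Bcl2a1b* in WT Sham and for *Bbc3* in replicate 2 of WT Sham and of WT MI, and beside them for *Card9* in WT Sham and for *Bcl2a1a*, *Bcl2a1c* and *Bcl2a1d* in all libraries, except *Bcl2a1d* in *Card9* KO MI replicate 2. The number of members called stayed at 6, 0 and 7 with the replicate block, and replicate numbers carried no pairing: deviations of same-numbered libraries correlated at 0.00244 (WT Sham with WT MI), -0.00828 (WT Sham with *Card9* KO MI) and 0.0204 (WT MI with *Card9* KO MI).

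Reversed values belonged to members that had not passed in the comparison, and the cause was not tested. In *Card9* KO MI against WT MI, *Mcl1* turned to -0.0374 and *Bcl2a1b* to -0.0137 under upper-quartile scaling, *Mcl1* to -0.0205 when scaled without the 100 most abundant genes, and *Bcl2* to -0.082 under quantile normalization. In *Card9* KO MI against WT Sham, quantile normalization turned *Bcl2* to -0.0562 and *Bbc3* to -0.0256. Leaving out single libraries moved *Mcl1* between -0.0501 and 0.0505, *Bcl2* between -0.0739 and 0.13, *Bcl2a1b* between -0.23 and 0.28 and *Bcl2l11* between -0.12 and 0.41 in *Card9* KO MI against WT MI, and *Bbc3* between -0.50 and 0.26 in WT MI against WT Sham. *Bcl2* passed in *Card9* KO MI against WT Sham when the variance trend was left out (limma adjusted p = 0.04864). Summing the *Bcl2a1* genes, an alternative chosen after seeing the data, changed no call of a member.

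Over all genes and with the values as deposited, WT MI against WT Sham gave 3637 higher and 1232 lower, 2603 and 2159 after upper-quartile scaling, 2288 and 2416 after quantile normalization, and 2869 and 1830 when scaled without the 100 most abundant genes. In *Card9* KO MI against WT Sham the same settings gave 4569 and 1875, 3230 and 2884, 2841 and 3409, and 3642 and 2527. In *Card9* KO MI against WT MI, 107 were higher and 77 lower, against 47 and 33 with a pseudocount of 0.1 FPKM, 200 and 112 with 5 FPKM, 7 and 5 without a filter on low values, 148 and 136 at a mean of at least 5 FPKM, 69 and 32 in a fit of these groups only, 40 and 18 without the trend, 45 and 26 with the replicate block, and from 3 and 5 to 63 and 33 with 1 library left out.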
